A study of Mus musculus with 5 samples.

Results

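Imprinted genes are the subject here: 44 named mouse genes that are known to be transcribed mainly from a single parental allele. For some of them this holds only in certain tissues or for certain isoforms. The genes were chosen by their symbols and not by any measured value. All 44 were found among the 24843 genes that the deposited transcripts form when they are summed by symbol. Their expression was measured by RNA-Seq in 2 samples of neural stem cells (NSCs) and 3 samples of STO cells. The NSCs were primary cells from the cortex of mouse embryos, kept for 5 to 8 passages as a monolayer in serum-free medium with epidermal and basic fibroblast growth factor, heparin and B27. STO cells are an established line of embryonic fibroblasts of the SIM mouse, selected for resistance to thioguanine and ouabain and widely used as feeder cells, and were grown in serum-containing medium for more than 30 passages. Both groups are labelled C57BL/6 and neither carries a transgene by its labels. For STO cells that label does not match the SIM mouse of their name, so a shared genetic background is not assured. The groups differ in tissue of origin, primary against established culture, medium and passage at once, and perhaps in strain, which cannot be told apart. The labels do not say whether the samples of a group came from separate cultures or animals, so p-values measure only the spread between these samples.

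Values are FPKM, fragments scaled by transcript length and by sequencing depth, which allow levels of different genes to be set side by side. They do not separate the parental alleles, and every value below is the sum of both. The replicates had a Pearson's r across genes of 0.994 in NSCs and 0.995 to 0.996 in STO cells, and relative depth, judged from the intervals deposited with the values, ranged from 0.719 to 1.09 times that of NSC replicate 1. All 8 neural stem cell markers checked were at 5.04 FPKM or more in NSCs and 7 of 8 were under 1 in STO cells, with vimentin (Vim) the exception. All 8 fibroblast markers were at 23.7 or more in STO cells and the means of 6 of 8 were under 1 in NSCs, among them that of Thy1, which was at 1.10 in NSC replicate 2. Markers of other neural cells were also present in the NSC samples: the summed level of 4 oligodendrocyte markers was 234 to 238 in NSCs against 2.31 to 2.52 in STO cells, that of 4 astrocyte markers 70.4 to 71.4 against 0.242 to 0.432, and that of 6 neuron markers 119 against 12.3 to 12.9. Of the neuron markers, Map2 made up most of the NSC sum (101 FPKM), and Tubb3 was at nearly the same mean in NSCs and STO cells (8.69 and 8.30). Of these defining markers, Mog and Rbfox3 were under 1 FPKM in NSCs, while in STO cells Dcx, Rbfox3, Snap25, Gfap, Aqp4 and Mog were listed at 0 in at least 1 sample. The part of such cells in the differences below was not tested, and in bulk RNA fewer cells of a type and less RNA per cell cannot be told apart. None of 8 genes that every cell uses was listed at 0 in any sample.

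Genomic imprinting marks a gene during egg or sperm formation with DNA methylation at a control region, and the mark is kept through cell division so that the maternal and paternal copies behave differently. Imprinted genes lie mostly in clusters that share a control region and often contain a long noncoding RNA. Many of them act on fetal growth, on the placenta and on the brain, and the paternally used genes as a class are known for favouring growth. The zinc finger protein ZFP57 is known to protect these marks by binding the methylated hexamer TGCCGC.

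The promoters of 38 of the 44 genes were matched in the RefSeq table of build GRCm38.p6, which gives 300 bases around each start, 250 before it and 50 after. H19, Peg10, Sgce, Impact, Rtl1 and Klf14 had no entry in that table. The hexamer TGCCGC was searched on both strands, so that GCGGCA also counts. It was present in at least 1 promoter of 12 of the 38 genes (31.6%), against 13.1% of 27025 genes in the table. Counted by promoter, it was present in 13 of the 52 promoters of these genes and in 11.6% of all 32851 promoters of this length. The shares by gene were not adjusted for the number of promoters per gene. Among genes with a promoter of 10 or more CG dinucleotides it was present in 11 of 29 imprinted genes (37.9%) and in 24.4% of 12388 genes. The median number of CG dinucleotides was 17 in the imprinted genes and 8 in all genes. The 12 genes were Zdbf2, Mcts2, Nnat, Mest, Copg2, Nap1l5, Zim1, Snrpn, Plagl1, Grb10, Commd1 and Meg3. A match describes letters, not a bound site, and it was present in at least 1 promoter of 3 of the 6 matched genes higher in STO cells and of 4 of the 15 lower in STO cells. Among genes with wide differences or high levels, Dlk1, Ndn, Gnas and Cd81 had no match. The promoters of 4 of the 12 genes with a match are shown 5′ to 3′ on the strand of the gene. The hexamer or its reverse complement is in capitals. In GRCm38.p6 they lie at chr6:30737800-30738099 (Mest, plus strand), chr10:13090582-13090881 (Plagl1, plus strand), chr2:157559828-157560127 (Nnat, plus strand) and chr6:58907077-58907376 (Nap1l5, minus strand).
Mest: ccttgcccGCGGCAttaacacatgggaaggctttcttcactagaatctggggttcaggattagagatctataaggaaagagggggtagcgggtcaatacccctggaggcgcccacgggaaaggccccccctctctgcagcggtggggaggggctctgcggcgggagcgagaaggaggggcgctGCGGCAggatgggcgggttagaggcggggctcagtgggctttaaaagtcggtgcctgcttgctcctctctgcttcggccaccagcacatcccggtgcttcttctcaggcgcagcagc
Plagl1: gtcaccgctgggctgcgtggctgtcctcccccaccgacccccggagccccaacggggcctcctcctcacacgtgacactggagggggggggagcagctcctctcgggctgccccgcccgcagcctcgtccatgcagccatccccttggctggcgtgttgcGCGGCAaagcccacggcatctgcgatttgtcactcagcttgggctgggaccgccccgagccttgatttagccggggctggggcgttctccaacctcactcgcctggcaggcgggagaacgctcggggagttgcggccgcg
Nnat: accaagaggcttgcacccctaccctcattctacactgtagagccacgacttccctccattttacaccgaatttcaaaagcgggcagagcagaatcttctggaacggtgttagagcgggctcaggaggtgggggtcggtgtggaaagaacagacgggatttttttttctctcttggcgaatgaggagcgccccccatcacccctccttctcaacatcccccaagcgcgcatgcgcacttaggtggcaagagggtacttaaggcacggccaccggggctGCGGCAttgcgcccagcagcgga
Nap1l5: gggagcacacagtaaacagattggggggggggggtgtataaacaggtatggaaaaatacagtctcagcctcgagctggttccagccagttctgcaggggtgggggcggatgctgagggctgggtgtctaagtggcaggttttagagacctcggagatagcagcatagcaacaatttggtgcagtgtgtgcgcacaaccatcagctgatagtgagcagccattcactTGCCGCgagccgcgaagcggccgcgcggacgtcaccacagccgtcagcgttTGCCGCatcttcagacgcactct
Mest and Plagl1, with 2 and 1 matches, were higher in STO cells. Nap1l5 and Nnat, with 2 and 1 matches, were lower in STO cells, so promoters with this hexamer were found on either side of the comparison.

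Of the 44 genes, 29 had a mean of at least 1 FPKM in either cell type and entered the comparison of STO cells with NSCs, which limma made on log2(FPKM + 1) over all 12277 genes at that level. In STO cells 8 were higher and 17 were lower at an adjusted p under 0.05, and 4 did not pass. These are 27.6% and 58.6% of the imprinted genes tested, beside 41.9% of all genes tested that were higher and 43.7% that were lower. Most genes differ between these cell types, so a difference by itself does not set an imprinted gene apart. Over all 44 genes the median difference on this scale was -0.14, against 0 over all genes, and among those tested it was -0.76 against -0.02. Differences were wide in both directions: their median size without sign was 1.64 in the imprinted genes tested and 0.74 in all genes tested, and 12 of 29 (41.4%) against 1983 of all (16.2%) reached 2 on the log2 scale. A gene tested only because it was high in 1 cell type had to differ. Of the 29, 10 had a mean of at least 1 FPKM in NSCs alone and 1, Grb10, in STO cells alone. The 10 were Ndn, Meg3, Rian, Copg2, Peg10, Sgce, Ppp1r9a, Slc22a3, Nnat and Nap1l5. For these 10 only a fall in STO cells could be found, and for Grb10 only a rise. Of all 12277 genes tested, 1568 reached that mean in NSCs alone and 885 in STO cells alone. Many such genes count among those that reached 2, including Copg2, which did not pass the threshold. The shares that reached 2 are therefore a description and no test.

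**Figure D1:**
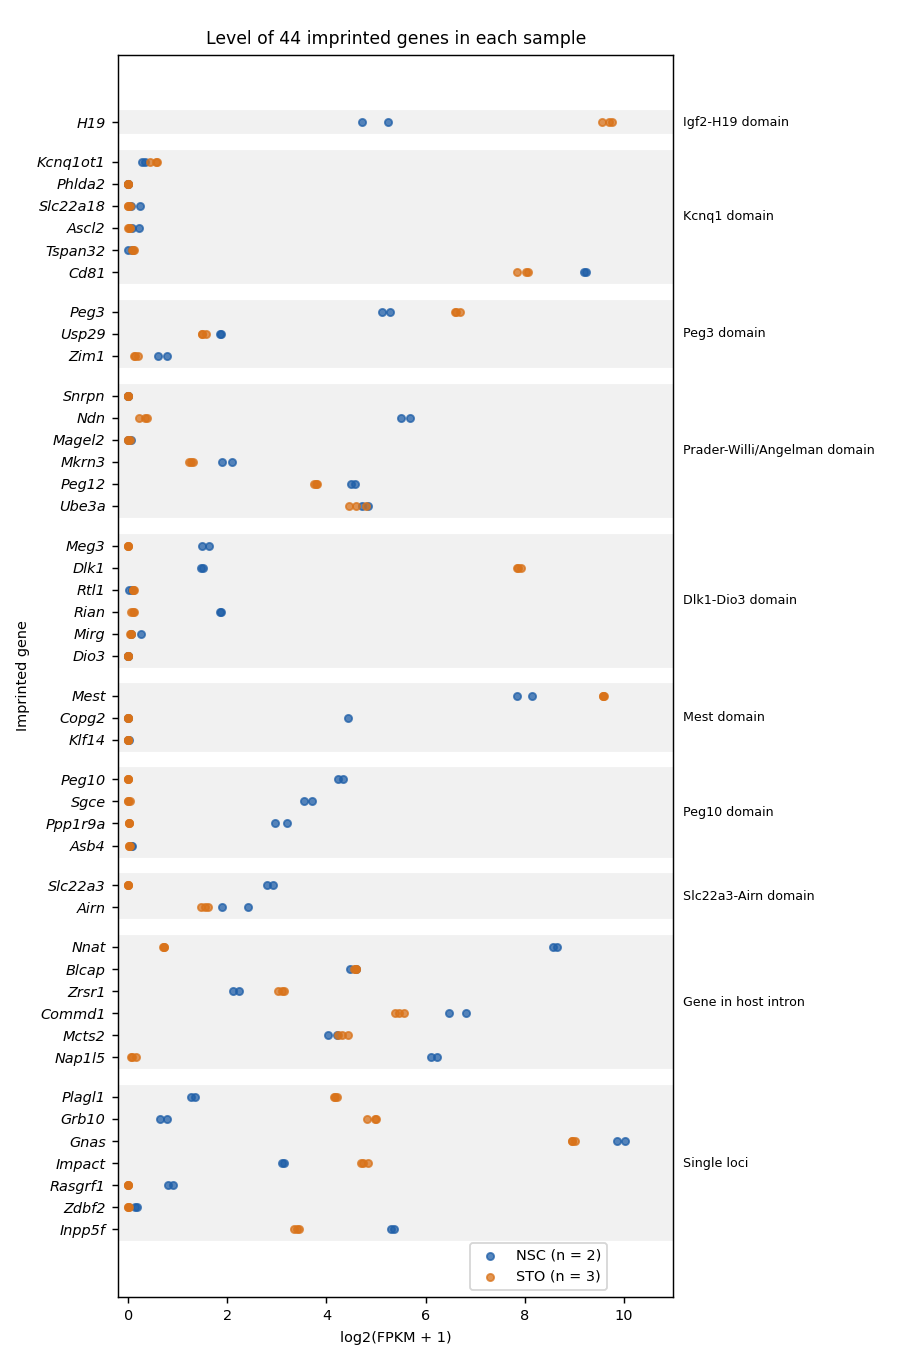
Level of each of the 44 imprinted genes as log2(FPKM + 1), with 1 point for each of the 2 NSC samples (blue) and 3 STO samples (orange), ordered by imprinted domain. H19, Mest and Dlk1 are far to the right in STO cells, while Nnat, Nap1l5, Ndn, Peg10, Sgce and Ppp1r9a stand well above 0 in NSCs alone.

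The summed level of the 44 genes was 2630 and 2808 FPKM in the NSC samples and 2832, 2951 and 2879 in the STO samples, which is 0.594% and 0.629% of all FPKM in NSCs and 0.714%, 0.766% and 0.720% in STO cells. Sums of similar size were made of different genes. Gnas, Cd81 and Nnat held 71.9% to 72.8% of the sum in NSCs, and H19, Mest and Gnas held 70.8% to 73.3% in STO cells. These are sums over the listed genes from both alleles. How much of this RNA came from a single allele in these cells was not measured, and Gnas is imprinted only by isoform or tissue. Of the 23 genes usually used from the paternal allele 16 were tested, with 6 higher (37.5%) and 9 lower (56.3%) in STO cells, beside 41.9% and 43.7% of all genes tested. Here 5 of the 16 had reached the level tested in NSCs alone, and 0 in STO cells alone. Of the 17 usually used from the maternal allele 9 were tested, with H19 alone higher and 6 lower (66.7%), and 5 of the 9 had reached the level tested in NSCs alone. The other 4, Grb10, Gnas, Blcap and Inpp5f, are imprinted by isoform or tissue and gave 1 higher and 2 lower. These allele classes are background and were not measured in these cells. Some, as for Ube3a and Slc22a3, hold only in certain tissues, so the counts do not describe alleles used here.

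**Figure D2:**
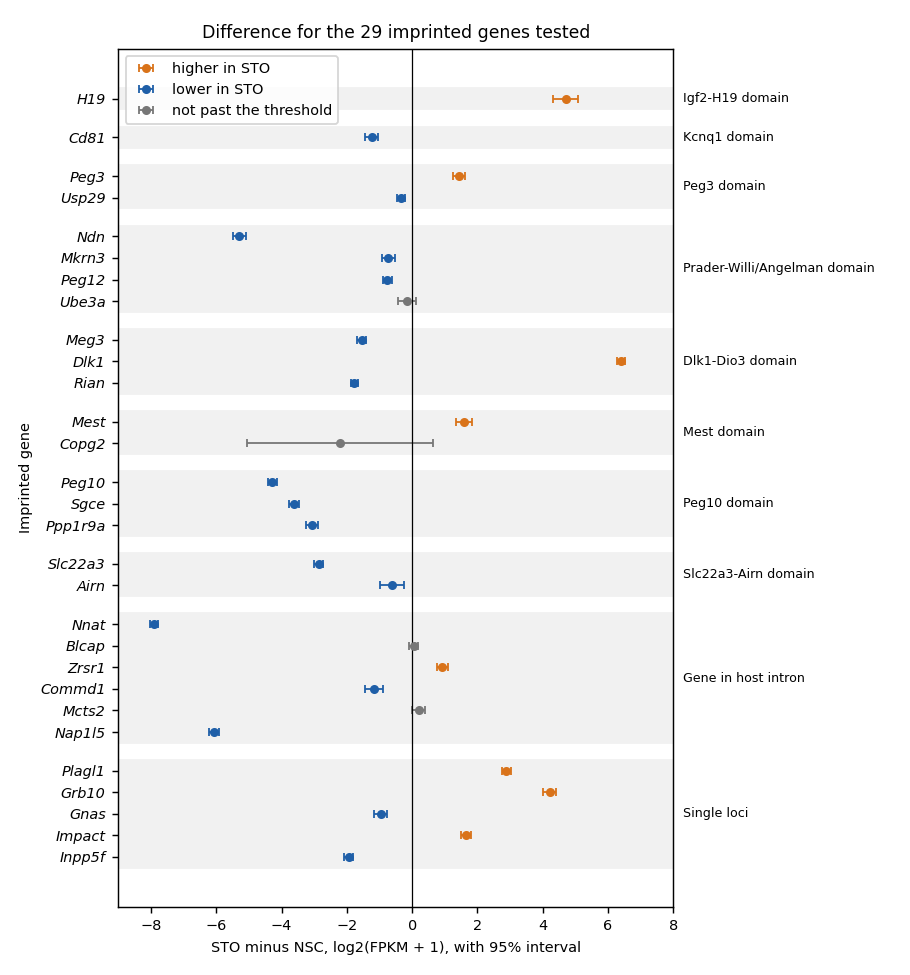
Difference between STO cells and NSCs for the 29 imprinted genes tested, as STO minus NSC on the log2(FPKM + 1) scale with its 95% interval from limma; orange is higher and blue lower in STO cells at an adjusted p under 0.05. Dlk1 is the farthest to the right (6.39) and Nnat the farthest to the left (-7.90), and the wide interval of Copg2 comes from 1 sample at 20.7 FPKM and 4 at 0.

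On distal chromosome 7, H19 (chr7:149761435-149764051 in mm9, as are all positions from here on, minus strand) is a maternally used long noncoding RNA that is abundant in embryonic tissues and switched down after birth. Its level was 36.6 and 25.3 FPKM in the NSC samples and 749, 870 and 832 in the STO samples. Every STO sample was thus far above both NSC samples, and the mean rose from 31.0 ± 8.01 (SD, n = 2) to 817 ± 62.1 (SD, n = 3), a ratio of 26.4. The log2 difference was 4.70 (SE 0.16, adjusted p = 4.99e-07 by limma). Ranked by level among all genes, H19 was number 2700 in NSCs and number 41 in STO cells. Its neighbour Igf2, a paternally used fetal growth factor that shares enhancers with H19 and is not among the 44, was at 0.398 and 0.206 FPKM in NSCs and at 107, 113 and 102 in STO cells, with a log2 difference of 6.38 (SE 0.083, adjusted p = 9.14e-09 by limma). Both genes of this reciprocal pair were therefore higher in STO cells, and in NSCs H19 was at a moderate level and Igf2 under 1 FPKM. Igf2 had reached the level tested in STO cells alone, so a rise was the only change the test could find for it.

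In the neighbouring Kcnq1 domain, 5 of the 6 genes that are among the 44 were under 1 FPKM in both cell types. Cd81, a tetraspanin of the cell surface, was the exception: it was at 588 and 599 FPKM in NSCs and at 267, 260 and 229 in STO cells, a log2 difference of -1.24 (SE 0.084, adjusted p = 1.59e-05 by limma). The groups did not overlap, and Cd81 was the second most abundant imprinted gene of the NSCs. Kcnq1ot1, the paternally used antisense RNA that silences this domain in cis, ranged from 0.221 to 0.268 in NSCs and from 0.350 to 0.495 in STO cells. FPKM is divided by length, and this transcript is long (chr7:150399016-150482452). The values imply 533 and 492 fragments in NSCs and 657 to 697 in STO cells, so the low FPKM does not mean a lack of reads. Kcnq1, the sense partner of Kcnq1ot1, was listed at 0 in all 5 samples. Other genes of this stretch that are not among the 44 were expressed. Nap1l4 was at 113 and 94.5 FPKM in NSCs and at 62.5 to 70.1 in STO cells. Tssc4 was at 33.9 and 33.0 against 20.0 to 24.2, and Osbpl5 at 5.62 and 5.86 against 17.5 to 18.4. Slc22a18, which codes for a transporter, Ascl2, a transcription factor of the trophoblast, and Tspan32, another tetraspanin, did not exceed 0.174 FPKM in any sample. Phlda2, a brake on placental growth, was listed at 0 in every sample.

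On proximal chromosome 7, Peg3 (chr7:6658671-6683130, minus strand) codes for a large zinc finger protein. It was at 33.8 and 38.1 FPKM in NSCs and at 95.3, 103 and 97.2 in STO cells. All STO samples lay above both NSC samples, with a ratio of the means of 2.74 and a log2 difference of 1.43 (SE 0.071, adjusted p = 3.32e-06 by limma). Usp29, a ubiquitin protease gene that starts 163 bases away in the opposite direction and is also paternally used, was at 2.63 and 2.68 in NSCs and at 1.98, 1.82 and 1.82 in STO cells. Usp29 was lower in STO cells by a small margin, with a log2 difference of -0.35 (SE 0.051, adjusted p = 7.77e-04 by limma), which did not pass after quantile normalization (-0.08, adjusted p = 0.227). Most of the summed Usp29 FPKM was in 1 transcript listed as noncoding, with means of 1.65 in NSCs and 1.68 in STO cells. That transcript held 73.2% and 51.0% of the sum in NSCs and 88.7% to 91.2% in STO cells. The lower sum thus came from the other Usp29 transcripts, each under 1 FPKM in every sample. The log2 ratio of Peg3 to Usp29, taken on FPKM + 1 like all ratios within a locus below, was 3.26 and 3.41 in NSCs and 5.01, 5.21 and 5.12 in STO cells, so a pair of genes around the same control region was used in unequal proportion in the cell types. That shift had p = 0.2 in a two-sided exact permutation test, the smallest p that 2 against 3 samples allow. Zim1, a maternally used zinc finger gene next to Peg3, was at 0.509 and 0.721 in NSCs and from 0.0831 to 0.139 in STO cells, too low to be tested.

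In the Prader-Willi/Angelman domain of central chromosome 7, necdin (Ndn, chr7:69493163-69494813, plus strand), a MAGE family protein known to restrain division of neural cells, was at 44.5 and 50.4 FPKM in NSCs and at 0.161, 0.258 and 0.300 in STO cells. The mean was thus 198 times higher in NSCs, and the log2 difference was -5.29 (SE 0.080, adjusted p = 1.46e-08 by limma). Its close relative Magel2 was between 0 and 0.0341 in all 5 samples; it lies close to Ndn on the same strand. Makorin gene Mkrn3, which codes for a ring finger protein, was at 3.30 and 2.69 in NSCs and at 1.48, 1.40 and 1.35 in STO cells, a log2 difference of -0.73 (SE 0.076, adjusted p = 1.35e-04 by limma). Peg12, a relative of the FRAT inhibitors of GSK3, was at 21.5 and 23.0 in NSCs and at 12.7, 13.1 and 12.4 in STO cells, a log2 difference of -0.76 (SE 0.055, adjusted p = 2.29e-05 by limma). The 4 paternally used genes that lie side by side here were therefore not used alike: in STO cells Peg12 kept a level of 12.8 ± 0.336 (SD, n = 3), whereas Ndn was at 0.239 ± 0.0710 (SD, n = 3).

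Snrpn, a component of the splicing machinery and the classic gene of this domain, was listed at 0 in all 5 samples for each of its 8 transcripts. The transcript named Snurf, an upstream reading frame carried by the same messenger RNA, was looked up after these values were seen. It was at 47.3 and 45.9 FPKM in NSCs and listed at 0 in all 3 STO samples, with a log2 difference of -5.57 (SE 0.049, adjusted p = 4.57e-09 by limma). Snurf had reached the level tested in NSCs alone, so a fall was the only change the test could find for it. The values of Snrpn and Snurf thus have to be read together, since the counting could split or assign their shared reads. Ube3a, the ubiquitin ligase of Angelman syndrome, which is maternally used in neurons but by both alleles in most cells, was at 25.4 and 27.6 in NSCs and at 23.3, 27.0 and 20.8 in STO cells. These groups overlapped, and the log2 difference of -0.16 (95% interval -0.43 to 0.11, adjusted p = 0.206 by limma) did not pass the threshold. One of its 2 transcripts held 23.8% and 25.9% of the gene's FPKM in NSCs and 41.8%, 40.2% and 37.8% in STO cells, with exact permutation p = 0.2.

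In the Dlk1-Dio3 domain of distal chromosome 12, 3 of 6 genes were tested. The paternally used Dlk1 was higher in STO cells, and the maternally used Meg3 and Rian were lower. Meg3 and Rian had reached the level tested in NSCs alone, so a fall was the only change the test could find for them. Dlk1 (chr12:110691033-110701546, plus strand), a transmembrane protein with EGF repeats that is a marker of immature mesenchymal cells, was at 1.84 and 1.79 FPKM in NSCs and at 242, 230 and 231 in STO cells. That is a ratio of 129 and a log2 difference of 6.39 (SE 0.051, adjusted p = 4.57e-09 by limma), the largest rise among the 29 imprinted genes tested. Meg3 (chr12:110779206-110809939, plus strand), the maternally used noncoding RNA that begins 77659 bases past the end of Dlk1, was at 1.79 and 2.08 in NSCs and was listed at 0 in all 3 STO samples, a log2 difference of -1.55 (SE 0.053, adjusted p = 5.74e-07 by limma). Rian, a noncoding RNA that carries small nucleolar RNAs, was at 2.65 and 2.62 in NSCs and at 0.0867, 0.0649 and 0.0406 in STO cells, a log2 difference of -1.77 (SE 0.043, adjusted p = 1.09e-07 by limma). Mirg, which carries microRNAs, did not exceed 0.196 in any sample. In NSCs Dlk1 and Meg3 were thus at nearly equal, low levels, with log2 ratios of 0.02 and -0.14, whereas in STO cells the log2 ratio, with the pseudocount of 1, was 7.93, 7.85 and 7.86 (exact permutation p = 0.2). Rtl1, a retrotransposon-derived gene needed in the placenta, ranged from 0.00712 to 0.0833 over all samples, and Dio3, an enzyme that inactivates thyroid hormone, was listed at 0 in all of them. Begain, which lies upstream of Dlk1 and is not among the 44, was at 0.868 and 0.995 in NSCs and at 4.74, 4.14 and 3.87 in STO cells, a log2 difference of 1.44 (adjusted p = 6.60e-06 by limma).

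**Figure D3:**
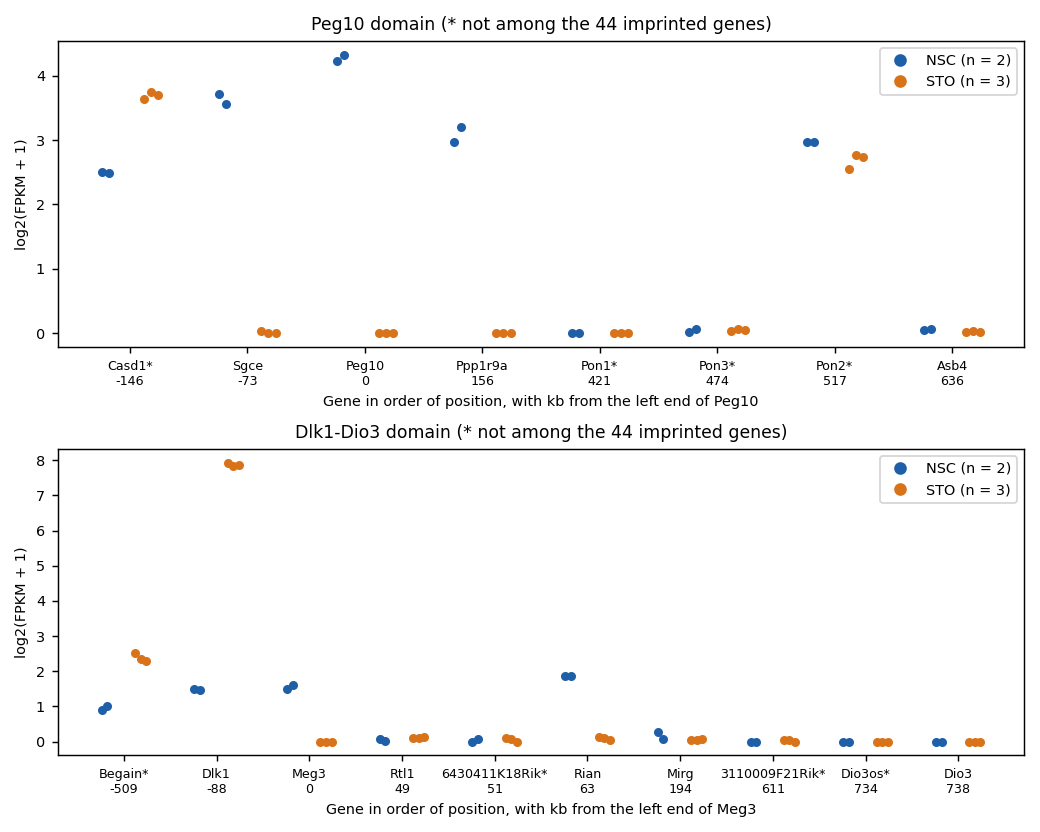
Genes of the Peg10 domain (top) and the Dlk1-Dio3 domain (bottom) in order of position, with their distance in kb from the left end of Peg10 or Meg3 and the level in each sample as log2(FPKM + 1); NSC samples are blue and STO samples orange, and a star marks genes that are not among the 44. Sgce, Peg10 and Ppp1r9a are at or near 0 in STO cells between Casd1 and Pon2, which are above 4 FPKM in every sample, and Dlk1 is the only gene of its domain that exceeds 200 FPKM in STO cells.

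In the Peg10 domain of proximal chromosome 6, 3 of 4 genes were well above 0 in NSCs and at or near 0 in STO cells. These 3 reached the level tested in NSCs alone, so that a fall was the only change the test could find. Peg10 (chr6:4697306-4710516, plus strand), a retrotransposon-derived gene needed for the placenta, was at 17.8 and 19.04 FPKM in NSCs and listed at 0 in every STO sample, with a log2 difference of -4.28 (SE 0.051, adjusted p = 7.13e-09 by limma). Sgce, which codes for epsilon-sarcoglycan and starts 101 bases from Peg10 in the opposite direction, was at 12.1 and 10.7 in NSCs, at 0.0261 in STO replicate 1 and listed at 0 in the others, a log2 difference of -3.62 (SE 0.062, adjusted p = 2.40e-08 by limma). Ppp1r9a, classed as maternally used, codes for the actin-binding protein neurabin. It was at 6.82 and 8.20 in NSCs and at 0.00464, 0.00405 and 0.00609 in STO cells, with 1, 1 and 2 fragments implied behind these last values. Its log2 difference was -3.08 (SE 0.075, adjusted p = 1.10e-07 by limma). Peg10 and Sgce, classed as paternally used, and Ppp1r9a, classed as maternally used, thus all fell. Asb4, a SOCS box protein gene at the far end, did not exceed 0.0530 in any sample. Outside this run of genes the flank Casd1, not among the 44, was at 4.64 and 4.59 in NSCs and at 11.4 to 12.4 in STO cells, a log2 difference of 1.20 (adjusted p = 2.63e-06 by limma), and Pon2 was at 6.82 and 6.84 against 4.84, 5.81 and 5.66 (-0.29, adjusted p = 0.0141 by limma). Because several of these values are 0, the size of their log2 differences depends on the pseudocount and is no measure of fold.

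Also on chromosome 6, Mest (chr6:30683506-30698466, plus strand), a paternally used gene for an alpha/beta hydrolase that is a mark of fetal mesoderm, was at 227 and 283 FPKM in NSCs and at 761, 775 and 761 in STO cells. The STO samples were all above both NSC samples, with a ratio of 3.00 and a log2 difference of 1.59 (SE 0.10, adjusted p = 1.18e-05 by limma). With Cd81 and Gnas, Mest was among the imprinted genes above 100 FPKM in all 5 samples. Copg2, a coat protein gene on the opposite strand whose end overlaps that of Mest by 913 bases, was at 20.7 in NSC replicate 1 and listed at 0 in NSC replicate 2 and in all STO samples. Its difference of -2.22 (SE 1.17, adjusted p = 0.118 by limma) did not pass and rests on that 1 sample. Without NSC replicate 2, which left 1 NSC sample, it was -4.44. Whether the authors counted by strand is not given in the sources used here, so reads of this overlap cannot be assigned to Mest or Copg2. Klf14, a transcription factor gene of the same domain, was at 0.0107 in NSC replicate 1 and listed at 0 in the others.

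On chromosome 17, the organic cation transporter gene Slc22a3 (chr17:12612840-12700570, minus strand), a maternally used gene in the placenta, was at 6.62 and 6.00 FPKM in NSCs and listed at 0 in all STO samples, a log2 difference of -2.87 (SE 0.053, adjusted p = 3.22e-08 by limma). Airn, the paternally used noncoding RNA that silences this cluster in cis in the placenta and Igf2r in most tissues, was at 2.69 and 4.37 in NSCs and at 2.04, 1.75 and 1.93 in STO cells. The groups did not overlap, but the NSC samples lay far apart, and the log2 difference of -0.62 (SE 0.15, adjusted p = 0.00917 by limma) did not pass after quantile normalization (-0.39, adjusted p = 0.0629). Without NSC replicate 2, which left 1 NSC sample, it was -0.34. Igf2r, the receptor that clears IGF2 and is not among the 44, was at 7.79 and 7.19 in NSCs and at 79.2, 81.4 and 78.4 in STO cells, a log2 difference of 3.25 (SE 0.055, adjusted p = 2.26e-08 by limma). It lies on the strand opposite to Airn and overlaps it by 28396 bases, of which 649 are exonic in Igf2r, so that without counting by strand reads of that overlap cannot be told apart. The log2 ratio of Airn to Igf2r, taken on FPKM + 1, was -1.25 and -0.61 in NSCs and -4.72, -4.91 and -4.76 in STO cells (exact permutation p = 0.2).

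Several imprinted genes sit inside an intron of another gene, and some of these are retrotransposed copies. Nnat (chr2:157385814-157388261, plus strand), which codes for the small membrane protein neuronatin of the developing brain, lies within an intron of all 3 Blcap transcripts that span it. It was at 399 and 382 FPKM in NSCs and at 0.646, 0.630 and 0.648 in STO cells, with means that differed 608-fold. On the log2(FPKM + 1) scale this was the largest fall among the 29 genes, -7.90 (SE 0.050, adjusted p = 3.13e-09 by limma). Blcap, a gene first found in bladder cancer, was at 21.2 and 23.3 in NSCs and at 22.6, 23.1 and 23.1 in STO cells, so the groups overlapped and the difference of 0.04 had a 95% interval of -0.10 to 0.18 (adjusted p = 0.515 by limma). The log2 ratio of the inner gene to its host, taken on FPKM + 1 and so set by the pseudocount where a level is under 1, went from 4.17 and 3.98 in NSCs to -3.84, -3.89 and -3.87 in STO cells. A Nnat transcript that held 31.7% and 32.4% of the gene's FPKM in NSCs held 100% in the STO samples. The STO share rests on 16, 18 and 24 implied fragments for the whole gene, so it cannot show a shift between transcripts.

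Nap1l5 (chr6:58855227-58857120, minus strand), a relative of the nucleosome assembly proteins, lies within an intron of both Herc3 transcripts that span it and gave a similar picture. It was at 67.7 and 73.7 FPKM in NSCs and at 0.0468, 0.0613 and 0.108 in STO cells, a log2 difference of -6.06 (SE 0.062, adjusted p = 5.23e-09 by limma). Its host Herc3, a ubiquitin ligase gene, was at 7.15 and 6.28 in NSCs and at 6.10, 5.97 and 5.69 in STO cells and did not pass (-0.15, adjusted p = 0.0744 by limma). The log2 ratio of Nap1l5 to Herc3, taken on FPKM + 1, was 3.08 and 3.36 in NSCs and -2.76, -2.72 and -2.59 in STO cells. In both of these loci the inner gene fell in STO cells, while the STO to NSC ratio of its host was 1.03 (Blcap) and 0.882 (Herc3).

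Zrsr1 and Mcts2 followed another course. Zrsr1 (chr11:22872005-22876496, plus strand), a copy of the splicing factor gene Zrsr2, was at 3.31 and 3.73 FPKM in NSCs and at 7.16, 7.86 and 7.63 in STO cells, a ratio of 2.15 and a log2 difference of 0.92 (SE 0.068, adjusted p = 2.43e-05 by limma). Its host Commd1, a copper-handling protein gene, was at 87.7 and 112 in NSCs and at 46.3, 40.7 and 43.1 in STO cells, a log2 difference of -1.17 (SE 0.11, adjusted p = 9.09e-05 by limma). Inner gene and host thus differed in opposite directions, although 412 bases of Commd1 exons overlap Zrsr1 in 1 of the 5 transcripts that span it. Mcts2 (chr2:152512884-152513678, plus strand), a copy of the translation factor gene Mcts1 within H13, was at 15.4 and 17.5 in NSCs and at 17.7, 18.8 and 20.5 in STO cells. Its groups did not overlap but lay close, and the log2 difference of 0.20 (95% interval -0.01 to 0.40, adjusted p = 0.0629 by limma) did not pass, whereas its host H13, a signal peptide peptidase gene, was lower in STO cells, at 34.6 and 43.2 against 19.6, 18.6 and 20.0 (-0.96, adjusted p = 1.18e-04 by limma). The parent genes were both higher in STO cells, Mcts1 by 0.23 (adjusted p = 0.0379 by limma) and Zrsr2 by 0.44 (adjusted p = 1.59e-04 by limma), and reads could be shared between parent and copy, so the values of Mcts2 and Zrsr1 are uncertain to that extent. For each of the 4 pairs of inner gene and host, the shift of the log2 ratio had exact permutation p = 0.2.

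**Figure D4:**
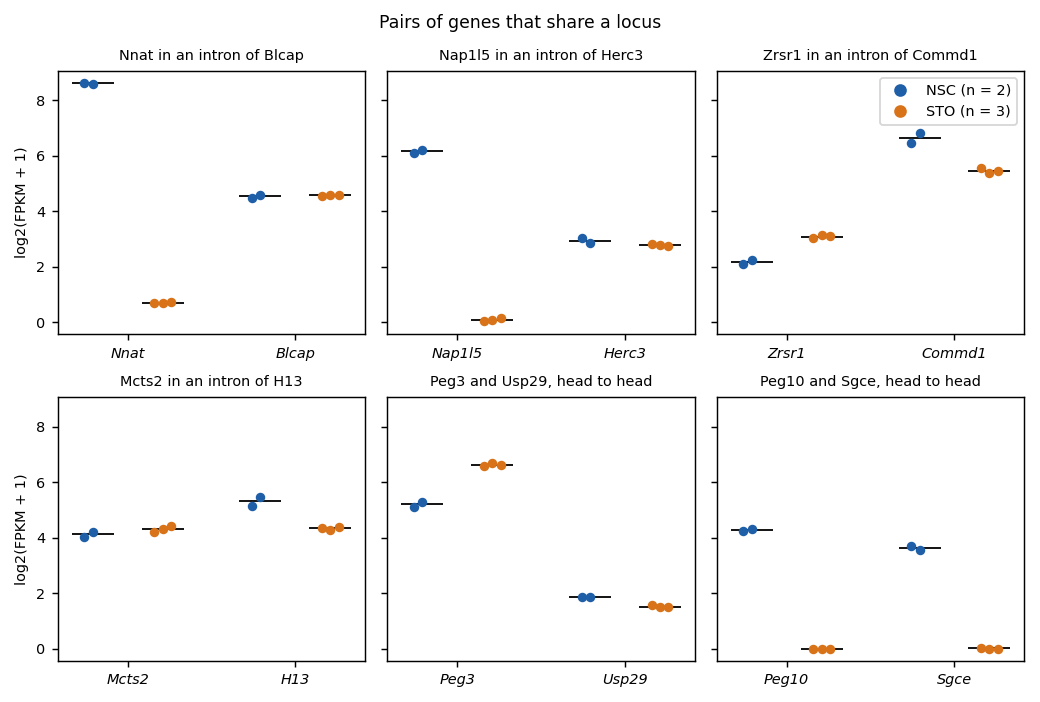
Levels of 6 pairs of genes that share a locus, as log2(FPKM + 1), with 1 point per sample (NSC blue, STO orange) and a bar at the mean of each group. Nnat and Nap1l5 drop towards 0 in STO cells beside hosts that stay near the same height, Peg3 and Usp29 diverge, and Peg10 and Sgce are both at or near 0 in STO cells.

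Among the genes that stand alone, Grb10 (chr11:11830502-11937423, minus strand), an adaptor protein that dampens insulin receptor signalling, is used from the maternal allele in most tissues and from the paternal allele in neurons. It was at 0.724 and 0.567 FPKM in NSCs and at 30.9, 30.5 and 27.2 in STO cells, a ratio of 45.8 and a log2 difference of 4.21 (SE 0.080, adjusted p = 3.69e-08 by limma). Plagl1 (chr10:12810594-12851501, plus strand), a zinc finger protein that slows cell division and is known to act on other imprinted genes, was at 1.40 and 1.53 in NSCs and at 17.1, 17.6 and 16.7 in STO cells, a ratio of 11.7 and a log2 difference of 2.88 (SE 0.056, adjusted p = 4.16e-08 by limma). Impact, an inhibitor of the stress kinase GCN2, was at 7.61 and 7.80 in NSCs and at 27.7, 25.7 and 25.0 in STO cells, a log2 difference of 1.64 (SE 0.061, adjusted p = 8.41e-07 by limma). For each of these 3 genes all STO samples lay above both NSC samples. The shorter of the 2 Impact transcripts held 0% and 28.1% of its FPKM in NSCs and 41.2% to 48.6% in STO cells.

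Gnas (chr2:174109821-174172243, plus strand), whose main product is the alpha subunit of the stimulatory G protein, was the most abundant imprinted gene of the NSCs. It was at 929 and 1037 FPKM in NSCs and at 495, 492 and 517 in STO cells, a log2 difference of -0.97 (SE 0.077, adjusted p = 3.55e-05 by limma). Only 1 of its 10 transcripts was above 0 in any sample, so the oppositely imprinted products of this locus cannot be compared here. Inpp5f (chr7:135754879-135839950, plus strand), a phosphoinositide phosphatase, was at 38.6 and 40.2 in NSCs and at 9.95, 9.53 and 9.10 in STO cells, a log2 difference of -1.94 (SE 0.058, adjusted p = 2.87e-07 by limma). Its imprinted form is known to be the short one that starts within the gene, and the short transcript held 63.3% and 51.2% of the FPKM in NSCs and 26.1%, 27.8% and 17.0% in STO cells (exact permutation p = 0.2). Per transcript, the short one went from 22.5 ± 2.72 (SD, n = 2) to 2.26 ± 0.622 (SD, n = 3) and the long one from 16.9 ± 3.84 to 7.26 ± 0.344. Rasgrf1, an activator of RAS known from neurons, was at 0.755 and 0.868 in NSCs and listed at 0 in all STO samples, and Zdbf2, a zinc finger gene of the brain, was at 0.124 and 0.106 against 0.00307 to 0.00694. Both were under the level at which genes were tested.

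The comparison was extended to 35 further genes reported as imprinted in mouse, of which 34 were found and 20 tested. In STO cells 7 were higher (35%) and 12 lower (60%), beside the same 41.9% and 43.7% of all genes, and Herc3 did not pass. Of the 20 tested, 4 had reached the level tested in NSCs alone and 3 in STO cells alone, which fixed their direction. Besides Igf2 and Igf2r, those higher by at least 1 on the log2 scale were Osbpl5, an oxysterol-binding protein gene (1.48), Wt1, a transcription factor of the kidney (1.07, listed at 0 in NSCs), and Sfmbt2, a polycomb-related gene (1.03). Those lower by as much included Gatm, an enzyme of creatine synthesis (75.9 FPKM in NSCs and 0 in each STO sample), Cdkn1c, an inhibitor of the cell cycle (14.7 and 0 in each), Qpct, a glutaminyl cyclase (-3.51), and Dhcr7, the last enzyme of cholesterol synthesis (-2.85). The adjusted p of these 9 genes ranged from 4.19e-09 to 1.36e-05 by limma. Cdkn1c is controlled by the same region as Kcnq1ot1. In the STO samples Cdkn1c was listed at 0 and Kcnq1ot1 was at 0.350 to 0.495 FPKM. In the NSC samples Cdkn1c was at 14.2 and 15.1 and Kcnq1ot1 at 0.268 and 0.221. Kcnq1ot1 was under the level at which genes were tested, and a link between the 2 genes was not tested.

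Genes known to set, keep or remove imprints were examined as a second list, of which 24 of 25 were found and 19 tested. Here 13 were higher and 5 lower in STO cells, again beside 41.9% and 43.7% of all genes. Zfp57, which codes for the protein that binds the hexamer printed above, was at 5.01 and 5.70 FPKM in NSCs and at 27.0, 24.5 and 28.2 in STO cells, a log2 difference of 2.12 (SE 0.082, adjusted p = 1.02e-06 by limma). Hells, a chromatin remodeller that aids DNA methylation, was at 10.7 and 10.6 against 44.5, 48.9 and 49.7, a log2 difference of 2.06 (adjusted p = 3.59e-07 by limma). The methyltransferase gene Dnmt3a was at 19.2 and 19.2 in NSCs and at 5.88, 6.18 and 5.73 in STO cells (-1.55, adjusted p = 6.31e-07 by limma), and Tet1, which oxidizes methylated cytosine, was at 4.15 and 4.48 against 0.689, 0.658 and 0.557 (-1.70, adjusted p = 5.98e-07 by limma). The other genes of the list that were higher differed by 0.18 (Setdb1, a histone methyltransferase) to 0.88 (Smchd1, a silencer of clustered genes). Ctcf, whose product insulates several of these clusters, was at 37.4 and 40.5 in NSCs and at 39.1, 40.2 and 42.4 in STO cells, a difference of 0.06 that did not pass (adjusted p = 0.411 by limma).

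**Figure D5:**
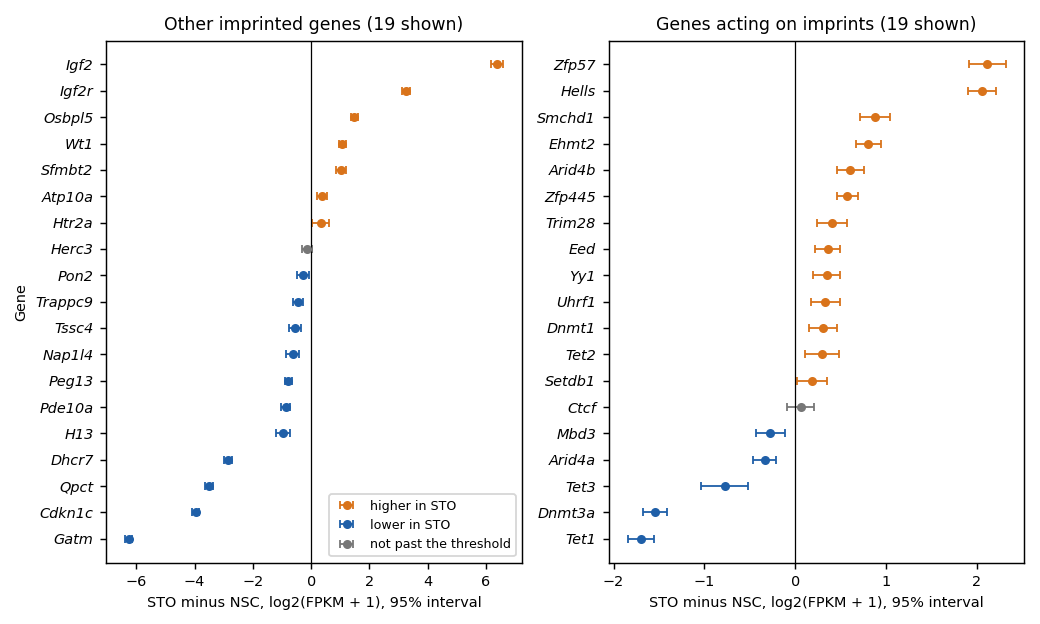
Difference between STO cells and NSCs, as STO minus NSC on the log2(FPKM + 1) scale with its 95% interval from limma, for 19 of the 20 further imprinted genes tested (left) and the 19 genes acting on imprints tested (right). Igf2 and Igf2r lie farthest to the right and Gatm farthest to the left, whereas on the right panel most genes lie between -1 and 1, with Zfp57 and Hells above 2.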

How the data were processed

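Stranded mRNA libraries were made from total RNA of each sample and read as paired ends. Per the labels and the study's methods, the authors trimmed the reads, aligned them to mm9 with HISAT2 4.8.2 and computed FPKM with Cufflinks 2.2.1 on RefSeq transcripts; whether strand was used is not given in the sources used here. The deposited FPKM values and their interval bounds cover 40201 transcripts per sample, and depth is already divided out. The interval bounds implied 15223341 to 22271895 fragments per sample, if the distance to the upper bound is taken as 2 SD of a Poisson count.

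Symbols were matched through RefSeq identifiers (99.4% of transcripts; the table is for GRCm38.p6 and was used for names only), and FPKM was summed per symbol into 24843 genes. Host introns were read from the GENCODE annotation of the mm9 build, in which 43 of the 44 genes were found, all at the same locus. Genes with a mean of at least 1 FPKM in NSCs or STO cells were tested on log2(FPKM + 1) by fitting linear models with eBayes and its trend option (limma 3.58.1, R 4.3.3), with Benjamini-Hochberg adjustment over all 12277 genes and a threshold of 0.05; this scale understates changes of low genes. Ratios of means were taken on FPKM itself, and none was taken against a group listed at 0. The fit was tested on simulated data with known changes. Log2 ratios within a locus, on FPKM + 1, and shares of transcripts were compared by two-sided exact permutation tests. Other steps used Python 3.11.15, pandas 2.3.3 and matplotlib 3.10.9.

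All 44 imprinted genes are named, with values per sample where the mean reached 1 FPKM. Of the other lists, genes past the threshold with a log2 difference of at least 1 are named, and further genes where a locus is shared. The values of 1 gene of these lists are not reported here. The 44 genes, the lists and the tests were chosen with earlier results of these data known. Alternatives changed the pseudocount, the level filter, the scaling, the trend, the transcripts summed, the replicate block and each sample in turn.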

Additional observations from a re-analysis of the deposited data

How the results depend on the processing

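Of the 29 imprinted genes tested, 23 kept their direction and their side of the threshold in every one of 14 alternatives that gave them a value. Over genes and alternatives, 391 values did so, 2 lost the threshold, 5 newly passed it and 2 changed sign. The signs that changed were those of Ube3a, at 0.0050 with FPKM rescaled to a common sum of 1000000, and Blcap, which ranged from -0.023 to 0.11 as samples were left out and was negative without NSC replicate 1; neither passed. The losses were Usp29 and Airn after quantile normalization. Newly past the threshold were Ube3a without STO replicate 2 (-0.26), Blcap and Mcts2 after rescaling (0.21 and 0.38), and Mcts2 without STO replicate 1 (0.25). Copg2 without NSC replicate 2 (-4.44) also passed, but that fit left 1 NSC sample and so no spread within NSCs. The causes were not tested. Rescaling shifted the differences of the genes tested by a median of 0.17 per gene and took the share of higher genes among those called from 48.9% to 54.8%; 32 imprinted genes were then tested, with 11 higher and 19 lower. Quantile normalization shifted them by a median of 0.04 per gene, to 51.9%, and gave smaller falls for Gnas (-0.55) and Mkrn3 (-0.43).

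The median over the imprinted genes, -0.14, moved with several settings. It was -0.70 with a pseudocount of 0.1, -0.26 after rescaling, -0.55 after quantile normalization and -0.86 at a mean of at least 5 FPKM. Over the genes at a mean of at least 1 FPKM, an alternative chosen after seeing the data, it was -0.76. Leaving out each sample in turn gave -0.18 to -0.10 for this median, 8 to 9 imprinted genes higher and 17 to 18 lower; an NSC group left with 1 sample was assumed to vary like the other samples. With an added requirement of a log2 difference of at least 1, 2099 of all 12277 genes tested were higher and 2613 lower. Of the 29 imprinted genes tested, 7 were then higher and 12 lower. Among the 20 further imprinted genes tested, 5 were higher and 5 lower, and among the 19 genes acting on imprints, 2 were higher and 2 lower. At a mean of at least 5 FPKM, 4 of 17 further imprinted genes tested were higher, beside 4316 of all 9956 genes tested.

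Both cell types have samples numbered 1 and 2, and nothing in the labels pairs them. Deviations from the group mean correlated at 0.0029 and 0.065 where the numbers matched and at -0.065 to 0.059 where they did not; with 2 NSC samples these are not independent. With the replicate number as a block, 8 imprinted genes were higher and 17 lower, as without it, and 4988 of all genes were higher and 5249 lower. Genes listed at or near 0 in every sample, such as Magel2 and Dio3, were not detectable at this depth; the values of Snrpn are read with those of Snurf instead.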

Other observations

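The clusters are also hosts of small RNAs, which mRNA libraries are not made to capture. Transcripts of at most 200 bases numbered 68 within the Dlk1-Dio3 domain, 25 within the Prader-Willi/Angelman domain and 1 each within the H19 and Mest domains, and all of them were listed at 0 in every sample. Several further noncoding RNAs of imprinted loci, Peg3os, Hymai, Gnasas1 and Snhg14, were listed at 0 in all 5 samples too.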
